A study of Mus musculus with 26 samples.

Results

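The genes described here are 32 genes of cholesterol and fatty acid synthesis, measured by RNA sequencing in microglia, the resident macrophages of the brain, from mice that differ in the genes Grn and Tmem106b. They were matched by symbol to the Ensembl identifiers of the count tables, all 32 were found among the 52636 genes listed, and all 32 were among the 21371 genes that passed the expression filter and were tested. The set holds 18 enzymes of sterol synthesis, 8 of them before squalene and 10 from squalene onward, 6 regulators and sterol transport genes, and 8 enzymes that make, lengthen or desaturate fatty acids. The sterol enzymes are known targets of the transcription factor encoded by Srebf2, and the fatty acid enzymes of the factor encoded by Srebf1.

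Progranulin, the product of Grn, is secreted and also delivered to lysosomes, and the Tmem106b product sits in the membranes of lysosomes and late endosomes. The study's title asks whether less Tmem106b changes the effect of Grn deficiency in microglia. The 26 libraries form 7 groups: Tmem106b HET Grn KO (n = 3), Tmem106b WT Grn KO (n = 4), Tmem106b HET Grn HET (n = 3), Tmem106b WT Grn HET (n = 5), Tmem106b KO Grn WT (n = 4), Tmem106b HET Grn WT (n = 4) and Tmem106b WT Grn WT (n = 3). KO is read here as knockout and HET as heterozygous. How the alleles were made, the age of the mice and the way microglia were isolated are not given in the sources used here. Each library is also labelled by sex (14 F, 12 M) and by dissection (18 Entire, 8 Hemi, not explained further). Both target genes followed the genotypes, with a mean of 3.23 and 4.84 CPM (counts scaled to a common library total) of Grn in the Tmem106b HET and Tmem106b WT Grn KO groups, against 2979.8 and 3345 CPM in the matching Grn WT groups. Tmem106b averaged 28.2 CPM in the Tmem106b KO group, against 77.6 CPM in the Tmem106b WT Grn WT group, so its transcripts were lowered and not absent.

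Cells make cholesterol from acetyl-CoA through mevalonate, isoprenoid diphosphates, squalene and lanosterol. The SREBP proteins encoded by Srebf2 and Srebf1 are made as inactive precursors in the endoplasmic reticulum. When sterols are low, the escort encoded by Scap carries them to the Golgi, where they are cut and released to the nucleus. When sterols are high, the proteins encoded by Insig1 and Insig2 hold the complex back. Insig1 is itself a target of SREBP, which makes it a common readout of the pathway. The brain makes its own cholesterol because lipoproteins of the blood hardly cross the blood-brain barrier. Oligodendrocytes make much of it for myelin, and microglia take up and return sterol from the cells and myelin debris they engulf.

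Library depth was 37.6 to 63.7 M counts (median 48.8 M). All 8 microglia markers checked were present in every Grn KO and Grn WT library of the Tmem106b HET and WT mice, with a summed level of 8449 to 30322 CPM in the 7 Grn KO libraries, against 33712 to 49921 CPM in the 7 Grn WT libraries. Of these 8 markers, 5 were lower and 0 higher in Grn KO libraries (edgeR, adjusted p under 0.05, averaged over Tmem106b WT and HET). All 10 neuron markers were also detected in each of these libraries, summing to 551 to 8205 CPM in Grn KO libraries, against 65.2 to 1611 CPM in Grn WT libraries, and all 10 were higher in Grn KO libraries (edgeR, adjusted p under 0.05, averaged over Tmem106b WT and HET). Oligodendrocyte markers (8 of 8 detected throughout) summed to 722 to 10449.7 CPM in Grn KO libraries, against 546 to 25624 CPM in Grn WT libraries, and none passed. In these bulk libraries, fewer cells of a type and less RNA per cell cannot be told apart. A pair of Hemi libraries stood apart: Tmem106b KO Grn WT replicate 2 and Tmem106b HET Grn KO replicate 3 held 8625 and 8449 CPM of microglia markers beside 8824 and 8205 CPM of neuron markers, and the first of these also held the highest value of 14 of the 32 genes in the whole data set. In the Tmem106b HET comparison every Entire library was female and every Hemi library male, so sex and dissection cannot be told apart there.

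SREBP proteins bind promoters at the sterol regulatory element, usually beside CCAAT and GC boxes. The stretches upstream of 3 genes, Sc5d, Insig1 and Hmgcs1, are printed. Sc5d and Insig1 were higher in Grn KO libraries. Of the 25 genes of the set with a promoter window at hand, Hmgcs1 alone had a window that held the element searched for. Sequences are from RefSeq (GRCm38.p6), 5′ to 3′ on the gene's strand, and end before the first annotated exon; they cover chr9:42264257-42264550 (minus strand), chr5:28071162-28071362 (plus strand) and chr13:119690101-119690378 (plus strand). Capitals mark the sterol regulatory element core TCACNCCAC and the CCAAT box, read on either strand, so that a CCAAT box on the opposite strand appears as ATTGG.
Sc5d: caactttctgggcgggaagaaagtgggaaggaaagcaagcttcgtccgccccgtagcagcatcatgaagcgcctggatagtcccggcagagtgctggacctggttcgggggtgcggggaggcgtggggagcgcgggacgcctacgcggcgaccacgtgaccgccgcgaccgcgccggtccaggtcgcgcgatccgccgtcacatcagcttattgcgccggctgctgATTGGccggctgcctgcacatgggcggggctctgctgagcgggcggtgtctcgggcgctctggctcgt
Insig1: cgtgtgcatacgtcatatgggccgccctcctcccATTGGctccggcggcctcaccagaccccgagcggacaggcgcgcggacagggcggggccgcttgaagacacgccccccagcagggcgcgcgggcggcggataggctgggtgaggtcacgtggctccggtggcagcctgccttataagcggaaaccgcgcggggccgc
Hmgcs1: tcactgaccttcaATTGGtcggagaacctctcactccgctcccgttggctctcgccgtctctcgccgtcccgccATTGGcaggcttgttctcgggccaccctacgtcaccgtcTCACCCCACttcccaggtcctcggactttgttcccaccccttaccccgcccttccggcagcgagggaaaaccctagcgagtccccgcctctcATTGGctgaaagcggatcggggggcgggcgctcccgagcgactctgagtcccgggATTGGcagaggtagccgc

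RefSeq promoter windows, 250 bases before to 50 bases after the start, were at hand for 25 of the 32 genes (33 windows). The element TCACNCCAC was found on either strand in 1 of the 33 windows, that of Hmgcs1, and in 1.24% of 32851 windows of all genes. CCAAT, the box bound by the factor NF-Y that works beside SREBP, was found in 63.6% of the windows (20 of the 25 genes), against 37.4% of all windows, and the GC box GGGCGG in 75.8% (21 of the 25 genes), against 35.7% of all windows. A CCAAT box on the opposite strand and a GC box can share their end bases, and each match was counted for its own motif.

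The fatty acid branch held the most abundant transcripts of the set. On the length-scaled RPKM of the deposited files, the median over the 26 libraries was 74.8 RPKM for Acly, which encodes ATP citrate lyase, 57.2 RPKM for the desaturase gene Scd2 and 34.8 RPKM for the desaturase gene Fads1. Sterol enzymes were led by the isomerase gene Ebp at 28.3 RPKM and by Msmo1 at 27.5 RPKM, and the other 14 sterol enzymes above 1 RPKM lay between 1.55 RPKM (Hsd17b7) and 12.4 RPKM (Hmgcs1). Idi1 was lowest at 0.102 RPKM, a median of 17.5 counts, followed by Acaca at 0.215 RPKM, Stard4 at 0.822 RPKM and Fdps at 0.897 RPKM; their values carry more counting error than the rest.

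On GRCm38, the 8 genes that passed in the comparisons described next are annotated as follows: Acat2 (ENSMUSG00000023832) at chr17:12942890-12960747 (minus strand), Pmvk (ENSMUSG00000027952) at chr3:89454541-89469013 (plus strand), Fdft1 (ENSMUSG00000021273) at chr14:63145150-63179578 (minus strand) and Cyp51 (ENSMUSG00000001467) at chr5:4081145-4104746 (minus strand). Further along the pathway are Msmo1 (ENSMUSG00000031604) at chr8:64718139-64733792 (minus strand) and Sc5d (ENSMUSG00000032018) at chr9:42251595-42264256 (minus strand). The regulator Insig1 (ENSMUSG00000045294) is at chr5:28071363-28078662 (plus strand). Acly (ENSMUSG00000020917) lies at chr11:100476353-100528000 (minus strand) and is the one fatty acid gene among them.

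With Grn lost, transcripts of 6 sterol synthesis enzymes and of Insig1 were higher, and those of Acly were lower. Averaged over the Tmem106b WT and HET backgrounds (7 Grn KO against 7 Grn WT libraries), 7 of the 32 genes were higher and 1 was lower in Grn KO at an adjusted p under 0.05, where 18.1% of all tested genes passed in either direction, 10.7% higher and 7.38% lower (edgeR's quasi-likelihood test with sex and dissection as covariates, Benjamini-Hochberg over 21371 genes). The 7 higher genes were the sterol enzymes Acat2, Pmvk, Fdft1, Cyp51, Msmo1 and Sc5d and the regulator Insig1, with log2 fold changes of 0.70 to 1.12, and the lower gene was Acly. By branch, 6 of the 18 sterol enzymes, 1 of the 6 regulators and 1 of the 8 fatty acid genes passed, and these few calls are read against the 18.1% of all genes that passed. The median log2 fold change was 0.73 over the 18 sterol enzymes (17 of 18 positive), 0.30 over the 6 regulators and −0.30 over the 8 fatty acid genes (3 of 8 positive), beside 0.06 over all genes tested. Without covariates, with sex as the only covariate, or with the neuron and oligodendrocyte marker sums added, no gene of the set passed by edgeR. Of all genes, 5.13%, 6.49% and 0.693% passed in these fits. Msmo1 passed whichever of the 14 libraries was left out; the count of 8 dropped to 2 without Tmem106b WT Grn WT replicate 2, the Hemi library of its group, and to 5 without Tmem106b WT Grn WT replicate 1 or without Tmem106b HET Grn WT replicate 2.

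Within the single backgrounds, 4 of the 32 genes were higher and 0 lower in Grn KO with Tmem106b HET (3 against 4 libraries), where 14.5% of all genes passed, 8.42% higher and 6.05% lower. They were Acat2, Pmvk, Fdft1 and Msmo1; 1 gene passed without Grn KO replicate 2, Grn WT replicate 2 or Grn WT replicate 4, and 2 without Grn KO replicate 3. With Entire libraries alone 1 gene, Msmo1, passed, where 6.89% of all genes did. With Tmem106b WT (4 against 3 libraries) no gene of the set passed by edgeR. Of all genes 0.576% did, 0.426% higher and 0.150% lower. At an unadjusted p under 0.05 by edgeR, 4 of the 32 genes were higher and 1 lower. Of all 21371 genes, 1662 were higher and 985 lower at that threshold. Limma-voom called 0 of the set, where 0.866% of all genes passed. DESeq2 called 1, Sc5d, where 5.47% of all genes passed. The medians of the 18 sterol enzymes were 0.80 and 0.52 in these backgrounds. The interaction of Grn KO with Tmem106b HET passed for none of the 32 genes by edgeR, DESeq2 or limma-voom. By edgeR, 1 gene, Lss, had an unadjusted p under 0.05, with a negative estimate. Of all 21371 genes, 403 with a positive and 514 with a negative estimate did. The average shares all its libraries with the single-background comparisons and is no separate evidence.

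**Figure D1:**
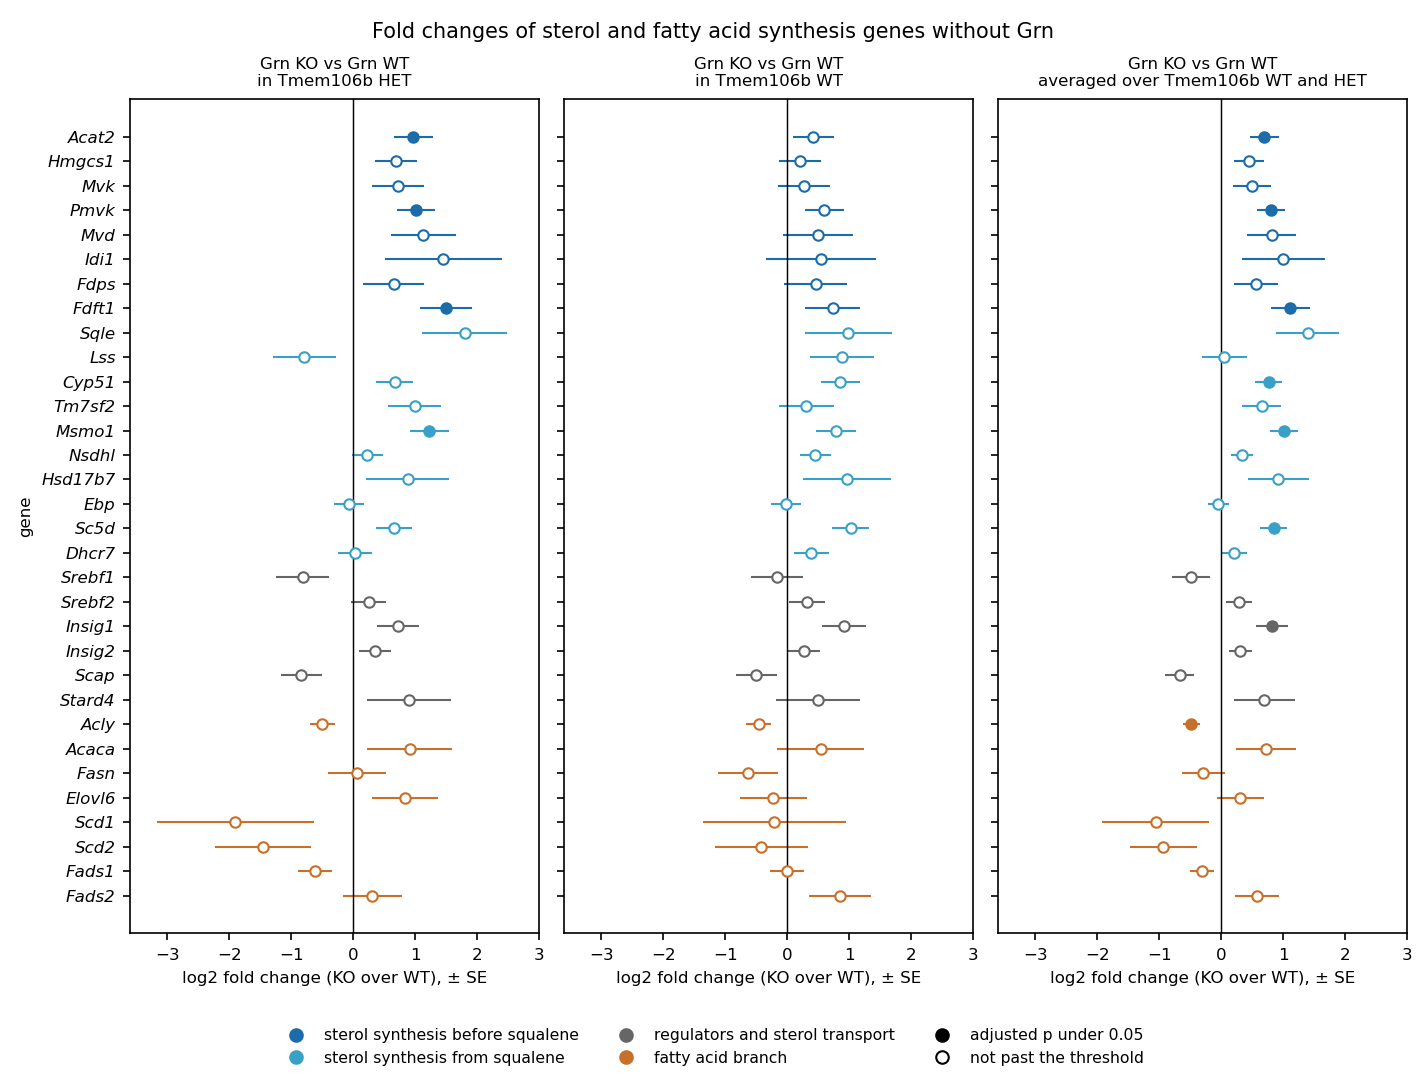
Log2 fold change of each of the 32 genes (Grn KO over Grn WT, bars ± SE from edgeR) with Tmem106b HET, with Tmem106b WT and averaged over both; colours mark the branch and filled points an adjusted p under 0.05. Sterol enzymes lie mostly right of 0, with 17 of 18 positive in the average, whereas 3 of the 8 fatty acid genes do.

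Of the enzymes before squalene, Acat2, Pmvk and Fdft1 were higher in Grn KO libraries. Acat2 encodes the cytosolic thiolase that joins acetyl-CoA units at the start of the pathway. Acat2 was at 20.9, 27.3 and 50.5 CPM in the Tmem106b HET Grn KO libraries, against 14.8, 12.3, 29.7 and 16.4 CPM in the Tmem106b HET Grn WT libraries. With Tmem106b WT, Acat2 was at 21.4, 16.2, 16.8 and 20.5 CPM in Grn KO libraries, against 15.0, 18.2 and 16.2 CPM in Grn WT libraries. Both groups of the first comparison held 1 Hemi library well above its Entire libraries, and the groups overlapped in both backgrounds. The log2 fold change of Acat2 was 0.70 ± 0.23 (SE) on average (adjusted p = 0.040), with 0.97 ± 0.31 in Tmem106b HET (adjusted p = 0.043) and 0.42 ± 0.33 in Tmem106b WT (adjusted p = 0.64). The averaged call was lost in 10 of the 14 fits that left out 1 library, and the call in Tmem106b HET in 5 of 7, with adjusted p up to 0.13 and 0.14 (edgeR). Acat2 stood at 13.6, 9.09 and 19.1 CPM in Tmem106b HET Grn HET libraries and at 12.2, 27.1, 12.8, 14.3 and 20.2 CPM in Tmem106b WT Grn HET libraries. Values of Acat2 in Tmem106b KO Grn WT libraries were 14.9, 55.4, 15.0 and 14.1 CPM. For Acat2 the highest of these 12 was Tmem106b KO Grn WT replicate 2, a Hemi library. Acat2 and Acat3 are close paralogs that could share reads.

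Pmvk encodes phosphomevalonate kinase. Pmvk was at 29.7, 35.1 and 61.3 CPM in the Tmem106b HET Grn KO libraries, against 16.4, 16.7, 34.9 and 24.9 CPM in the Tmem106b HET Grn WT libraries. With Tmem106b WT, Pmvk was at 26.7, 24.3, 31.4 and 27.5 CPM in Grn KO libraries, against 14, 35.6 and 17.2 CPM in Grn WT libraries. Hemi libraries were the highest of 3 of these 4 groups, and the Entire libraries of the Grn KO groups all lay above those of the Grn WT groups. On average Pmvk was higher by a log2 fold change of 0.81 ± 0.22 (adjusted p = 0.017), with 1.02 ± 0.31 in Tmem106b HET (adjusted p = 0.033) and 0.60 ± 0.32 in Tmem106b WT (adjusted p = 0.46). On average the call ended without Tmem106b WT Grn WT replicate 1, with an adjusted p of 0.053 by edgeR, and the call in Tmem106b HET in 5 of the 7 fits that left out 1 library, with adjusted p up to 0.11. Pmvk stood at 21.2, 9.22 and 19.2 CPM in Tmem106b HET Grn HET libraries and at 12.4, 25.2, 12.9, 20.5 and 28.1 CPM in Tmem106b WT Grn HET libraries. Values of Pmvk in Tmem106b KO Grn WT libraries were 22.8, 73.5, 23.4 and 19.1 CPM. For Pmvk the highest of these 12 was Tmem106b KO Grn WT replicate 2, a Hemi library.

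Fdft1 encodes squalene synthase, the enzyme that commits the pathway to sterols. Fdft1 was at 12.5, 16.2 and 32.6 CPM in the Tmem106b HET Grn KO libraries, against 7.29, 3.01, 17.2 and 8.75 CPM in the Tmem106b HET Grn WT libraries. With Tmem106b WT, Fdft1 was at 9.61, 12.2, 8.12 and 9.52 CPM in Grn KO libraries, against 6.43, 13.2 and 3.90 CPM in Grn WT libraries. The Hemi library was the highest of each of these 4 groups. Its log2 fold change was 1.12 ± 0.31 on average (adjusted p = 0.017), 1.5 ± 0.42 in Tmem106b HET (adjusted p = 0.023) and 0.73 ± 0.44 in Tmem106b WT (adjusted p = 0.52). On average the call ended without Tmem106b WT Grn WT replicate 2, with an adjusted p of 0.057 by edgeR, and the call in Tmem106b HET without Grn KO replicate 2, Grn WT replicate 2 or Grn WT replicate 4 (adjusted p up to 0.094). Fdft1 stood at 5.53, 2.74 and 4.52 CPM in Tmem106b HET Grn HET libraries and at 3.76, 23.1, 3.62, 6.40 and 15.6 CPM in Tmem106b WT Grn HET libraries. Values of Fdft1 in Tmem106b KO Grn WT libraries were 7.72, 48.1, 12 and 6.25 CPM. For Fdft1 the highest of these 12 was Tmem106b KO Grn WT replicate 2, a Hemi library. Fdft1 shares 18.3% of its 4227 annotated exon bases with Ctsb on the opposite strand, a lysosomal protease gene at 2093 to 25723 CPM. The log2 fold change of Ctsb was 1.32 on average (edgeR, adjusted p = 0.00056). The deposited width of Fdft1 is 3698 bases, and the strand setting of the counts is not given in the sources used here. How many reads of Ctsb were counted for Fdft1 was thus not tested.

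Hmgcs1, which encodes HMG-CoA synthase, did not pass. Hmgcs1 was at 54.7, 81.7 and 114 CPM in the Tmem106b HET Grn KO libraries, against 51.5, 32.8, 109 and 50.5 CPM in the Tmem106b HET Grn WT libraries. With Tmem106b WT, Hmgcs1 was at 65.4, 70.3, 47.8 and 52.7 CPM in Grn KO libraries, against 57.1, 95.3 and 32.2 CPM in Grn WT libraries. The groups overlapped, and the log2 fold change was 0.45 ± 0.24 on average (adjusted p = 0.21). Hmgcs1 stood at 42.3, 23.4 and 32.5 CPM in Tmem106b HET Grn HET libraries and at 39, 76.3, 24.8, 50.9 and 79.0 CPM in Tmem106b WT Grn HET libraries. Values of Hmgcs1 in Tmem106b KO Grn WT libraries were 33.9, 172, 48.5 and 41.2 CPM. For Hmgcs1 the highest of these 12 was Tmem106b KO Grn WT replicate 2, a Hemi library. The other 4 genes before squalene also had positive estimates that did not pass: 0.49 for Mvk (mevalonate kinase), 0.81 for Mvd (mevalonate diphosphate decarboxylase), 0.56 for Fdps (farnesyl diphosphate synthase) and 1.0 for Idi1 (isopentenyl diphosphate isomerase), with adjusted p of 0.28, 0.16, 0.30 and 0.32 by edgeR. Over the 26 libraries they ranged over 5.76 to 29.3 CPM for Mvk, 1.69 to 34.6 CPM for Mvd, 0.697 to 5.30 CPM for Fdps and 0.0204 to 0.985 CPM for Idi1. Fdps and Idi1 rest on medians of 81.5 and 17.5 counts. Fdps shares 26.7% of its annotated exon bases with Gm43738 on the same strand, a gene at 0 CPM in every library. The deposited width of Fdps is 1453 bases, beside 4208 annotated exon bases, so whether the shared bases were counted is not known. The effect of this overlap on the counts of Fdps was not tested.

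Of the enzymes from squalene onward, Cyp51, Msmo1 and Sc5d were higher in Grn KO libraries, and Msmo1 had the smallest p of the 32 genes. Msmo1 encodes the methylsterol monooxygenase that removes methyl groups from lanosterol products. Msmo1 was at 132, 93.8 and 111 CPM in the Tmem106b HET Grn KO libraries, against 57.7, 29.6, 93.8 and 43.1 CPM in the Tmem106b HET Grn WT libraries. With Tmem106b WT, Msmo1 was at 111, 127, 89.7 and 102 CPM in Grn KO libraries, against 58.8, 75.5 and 65.1 CPM in Grn WT libraries. All 7 Grn KO libraries lay at 89.7 CPM or above, whereas 1 of the 7 Grn WT libraries did, the Hemi library Tmem106b HET Grn WT replicate 3. Its log2 fold change was 1.01 ± 0.23 on average (adjusted p = 0.0051), 1.23 ± 0.31 in Tmem106b HET (adjusted p = 0.014) and 0.79 ± 0.32 in Tmem106b WT (adjusted p = 0.32). In Tmem106b HET the call ended without Grn KO replicate 1, with an adjusted p of 0.054 by edgeR. The remaining groups held 63.5, 54.6 and 63.4 CPM of Msmo1 (Tmem106b HET Grn HET), 53.1, 118, 46.9, 52.4 and 98.4 CPM (Tmem106b WT Grn HET) and 62.3, 208, 67.4 and 54.9 CPM (Tmem106b KO Grn WT). Outside Grn KO the 5 highest values, from 75.5 CPM up, all came from Hemi libraries.

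Cyp51 encodes lanosterol demethylase. Cyp51 was at 53.4, 56.8 and 71.2 CPM in the Tmem106b HET Grn KO libraries, against 33.2, 29.3, 66.4 and 48.3 CPM in the Tmem106b HET Grn WT libraries. With Tmem106b WT, Cyp51 was at 56.9, 52.7, 54.7 and 63.6 CPM in Grn KO libraries, against 37.0, 41.3 and 31.1 CPM in Grn WT libraries. In the Tmem106b WT background the Grn KO and Grn WT libraries did not overlap; in the Tmem106b HET background the Hemi library of the Grn WT group reached into the range of Grn KO. Cyp51 was higher on average by 0.76 ± 0.22 (adjusted p = 0.021), but neither single background passed, with 0.67 ± 0.30 in Tmem106b HET (adjusted p = 0.14) and 0.86 ± 0.31 in Tmem106b WT (adjusted p = 0.26). On average the call ended without Tmem106b WT Grn WT replicate 2, with an adjusted p of 0.067 by edgeR. Cyp51 stood at 34.1, 20.7 and 58.8 CPM in Tmem106b HET Grn HET libraries and at 25.5, 46.8, 18.9, 39.2 and 45.2 CPM in Tmem106b WT Grn HET libraries. Values of Cyp51 in Tmem106b KO Grn WT libraries were 37.0, 115, 40.0 and 41.3 CPM. For Cyp51 the highest of these 12 was Tmem106b KO Grn WT replicate 2, a Hemi library.

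Sc5d encodes the sterol desaturase that acts late in the pathway. Sc5d was at 62.2, 48.7 and 72.0 CPM in the Tmem106b HET Grn KO libraries, against 40.3, 22.8, 78.2 and 35.0 CPM in the Tmem106b HET Grn WT libraries. With Tmem106b WT, Sc5d was at 64.4, 52.1, 49.0 and 54.3 CPM in Grn KO libraries, against 39.2, 28.0 and 24.3 CPM in Grn WT libraries. All 7 Grn KO libraries, from 48.7 CPM up, lay above 6 of the 7 Grn WT libraries, and the highest value was again that of Tmem106b HET Grn WT replicate 3. The log2 fold change of Sc5d was 0.84 ± 0.21 on average (adjusted p = 0.0099), 0.67 ± 0.29 in Tmem106b HET (adjusted p = 0.13) and 1.02 ± 0.30 in Tmem106b WT (adjusted p = 0.14). On average the call ended without Tmem106b WT Grn WT replicate 2, with an adjusted p of 0.056 by edgeR. Sc5d stood at 42.8, 25.7 and 41.4 CPM in Tmem106b HET Grn HET libraries and at 29.8, 73.8, 32.3, 30.6 and 47.9 CPM in Tmem106b WT Grn HET libraries. Values of Sc5d in Tmem106b KO Grn WT libraries were 37.4, 77.0, 40.6 and 39.4 CPM. For Sc5d the highest of these 12 was Tmem106b KO Grn WT replicate 2, a Hemi library.

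Sqle, which encodes squalene epoxidase, had the largest estimate of the set but also a wide spread. Sqle was at 37.7, 57.3 and 66.5 CPM in the Tmem106b HET Grn KO libraries, against 17.5, 6.75, 55.6 and 20.8 CPM in the Tmem106b HET Grn WT libraries. With Tmem106b WT, Sqle was at 47.6, 48.1, 24.2 and 30.9 CPM in Grn KO libraries, against 15.9, 53.8 and 14.6 CPM in Grn WT libraries. Hemi libraries were the highest of all 4 groups, and the log2 fold change of 1.39 ± 0.50 on average did not pass (adjusted p = 0.061). The remaining groups held 14.9, 1.41 and 0.856 CPM of Sqle (Tmem106b HET Grn HET), 12, 55.3, 14.3, 22.6 and 69.2 CPM (Tmem106b WT Grn HET) and 14.5, 152, 18.3 and 21.8 CPM (Tmem106b KO Grn WT). Sqle thus ranged from 0.856 CPM in a Tmem106b HET Grn HET library to 152 CPM in Tmem106b KO Grn WT replicate 2.

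The other 6 enzymes from squalene onward did not pass on average: the estimates were 0.65 for the sterol reductase gene Tm7sf2 (adjusted p = 0.15 by edgeR), 0.92 for Hsd17b7 (0.21), 0.34 for Nsdhl (0.19) and 0.21 for the late reductase gene Dhcr7 (0.51). Their levels over the 26 libraries spanned 4.71 to 30.1 CPM for Tm7sf2, 0.353 to 20.8 CPM for Hsd17b7, 11.6 to 34.5 CPM for Nsdhl, 15.3 to 39.3 CPM for Dhcr7, 34.2 to 92.1 CPM for Ebp and 2.73 to 30.6 CPM for Lss. Nsdhl and Hsd17b7 encode enzymes of the same demethylation steps as Msmo1. Ebp had −0.05 (adjusted p = 0.89) and Lss, the lanosterol synthase gene, 0.05 (adjusted p = 0.95), with Lss at −0.79 in Tmem106b HET and 0.88 in Tmem106b WT (adjusted p = 0.31 and 0.51; interaction −1.68, unadjusted p = 0.031 by edgeR, adjusted p = 0.87). Tm7sf2 shares 12.1% of its 4403 annotated exon bases with Vps51 on the same strand. Part of its reads may thus belong to that gene whatever the strand setting. The deposited width of Tm7sf2 is 1636 bases, so whether the shared bases were counted is not known.

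**Figure D2:**
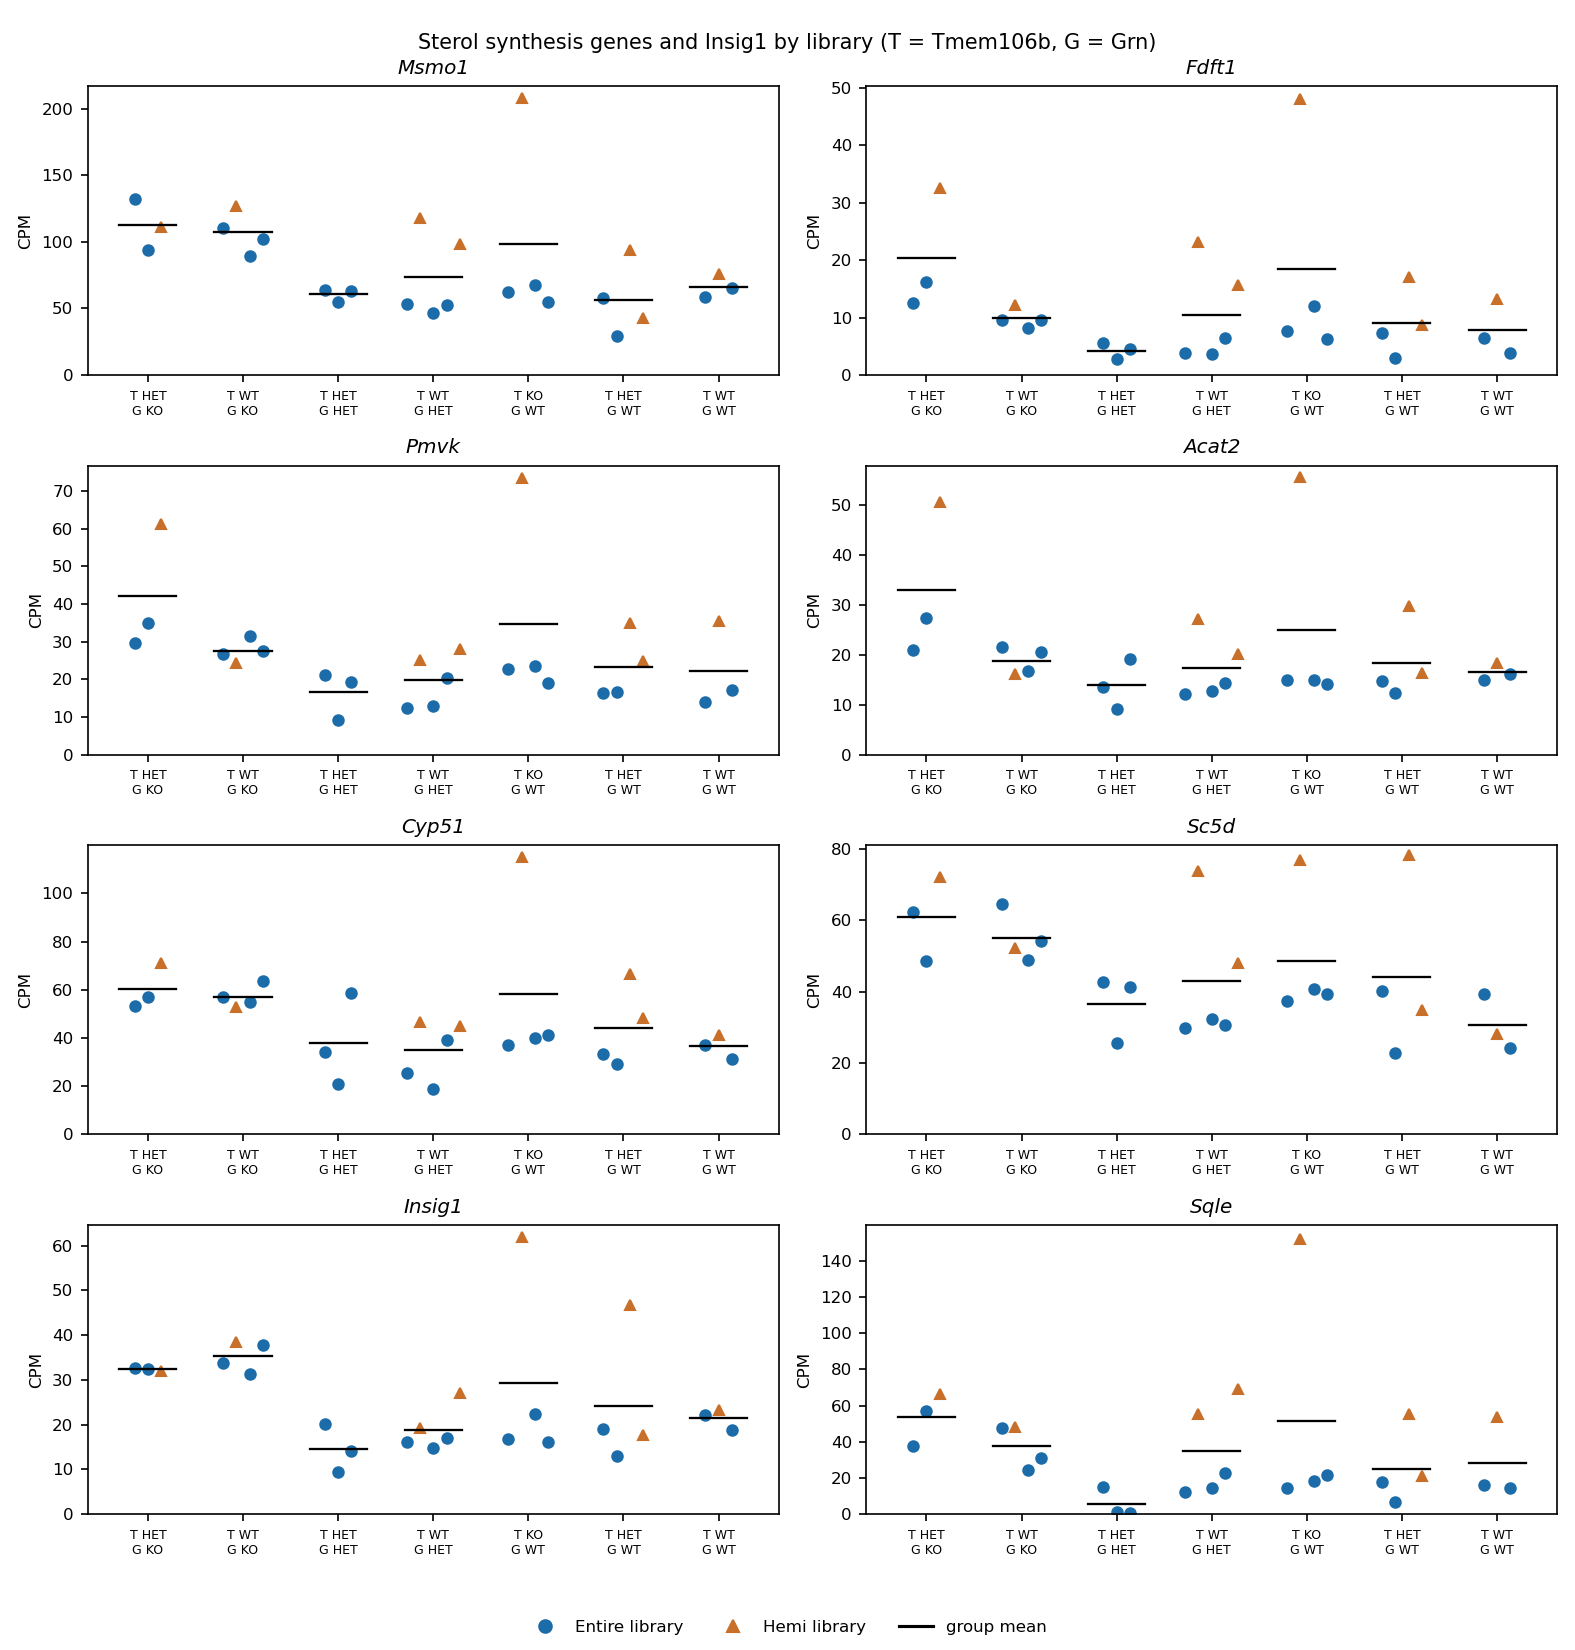
CPM of 6 sterol enzymes that were higher in Grn KO on average, of Insig1 and of Sqle in each of the 26 libraries, by group (T, Tmem106b; G, Grn), with circles for Entire libraries, triangles for Hemi libraries and bars for group means. Grn KO libraries of Insig1 lie between 31.2 and 38.4 CPM, and the Hemi library of the Tmem106b KO group is the highest point of 7 of the 8 panels.

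Among the regulators, Insig1 was higher in Grn KO libraries and the genes of both SREBP proteins did not pass. The Insig1 protein retains the SREBP complex in the endoplasmic reticulum. Insig1 was at 32.6, 32.3 and 32 CPM in the Tmem106b HET Grn KO libraries, against 18.9, 12.9, 46.7 and 17.6 CPM in the Tmem106b HET Grn WT libraries. With Tmem106b WT, Insig1 was at 33.8, 38.4, 31.2 and 37.8 CPM in Grn KO libraries, against 22.2, 23.2 and 18.8 CPM in Grn WT libraries. All 7 Grn KO libraries lay between 31.2 and 38.4 CPM, above 6 of the 7 Grn WT libraries. Higher than all of them was Tmem106b HET Grn WT replicate 3, a Hemi library. It held 25624 CPM of oligodendrocyte, 1325 CPM of astrocyte, 1301 CPM of oligodendrocyte precursor and 544 CPM of endothelial markers. Each of these sums was the highest of the 26 libraries. The log2 fold change of Insig1 was 0.82 ± 0.25 on average (adjusted p = 0.028), 0.72 ± 0.34 in Tmem106b HET (adjusted p = 0.16) and 0.92 ± 0.35 in Tmem106b WT (adjusted p = 0.29). The remaining groups held 20.2, 9.32 and 14.2 CPM of Insig1 (Tmem106b HET Grn HET), 16.2, 19.2, 14.8, 17.0 and 27.1 CPM (Tmem106b WT Grn HET) and 16.7, 62.0, 22.3 and 16.2 CPM (Tmem106b KO Grn WT). On average the call ended without Tmem106b HET Grn KO replicate 2, Tmem106b HET Grn WT replicate 2 or Tmem106b WT Grn WT replicate 2 (adjusted p up to 0.092 by edgeR). Except for Tmem106b KO Grn WT replicate 2, none of these 12 libraries reached the Grn KO range.

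Srebf2 encodes the factor that drives sterol synthesis. Srebf2 was at 64.8, 101 and 69.1 CPM in the Tmem106b HET Grn KO libraries, against 62.2, 64.9, 105 and 65.4 CPM in the Tmem106b HET Grn WT libraries. With Tmem106b WT, Srebf2 was at 84.0, 123, 63.8 and 68.7 CPM in Grn KO libraries, against 81.9, 83.9 and 46.7 CPM in Grn WT libraries. The groups overlapped and the log2 fold change on average was 0.28 ± 0.21 (adjusted p = 0.36). Srebf2 stood at 61.4, 38.6 and 47.9 CPM in Tmem106b HET Grn HET libraries and at 72.0, 119, 64.6, 65.3 and 112 CPM in Tmem106b WT Grn HET libraries. Values of Srebf2 in Tmem106b KO Grn WT libraries were 49.8, 149, 49.5 and 84.2 CPM. For Srebf2 the highest of these 12 was Tmem106b KO Grn WT replicate 2, a Hemi library. Srebf1 encodes the factor that drives fatty acid synthesis. Srebf1 was at 90.2, 96.5 and 47.3 CPM in the Tmem106b HET Grn KO libraries, against 126, 109, 287 and 68.8 CPM in the Tmem106b HET Grn WT libraries. With Tmem106b WT, Srebf1 was at 85.1, 166, 78.1 and 82.1 CPM in Grn KO libraries, against 136, 118 and 95.8 CPM in Grn WT libraries. Srebf1 had a log2 fold change of −0.49 ± 0.30 (adjusted p = 0.28), and its highest value, 287 CPM, was in Tmem106b HET Grn WT replicate 3. Srebf1 stood at 114, 103 and 91.1 CPM in Tmem106b HET Grn HET libraries and at 124, 117, 106, 109 and 214 CPM in Tmem106b WT Grn HET libraries. Values of Srebf1 in Tmem106b KO Grn WT libraries were 71.2, 46.1, 66.0 and 109 CPM. For Srebf1 the highest of these 12 was Tmem106b WT Grn HET replicate 5, a Hemi library. The remaining regulators did not pass on average either, with −0.67 ± 0.24 for Scap (adjusted p = 0.054), 0.31 ± 0.19 for Insig2 (adjusted p = 0.27) and 0.70 ± 0.49 for Stard4 (adjusted p = 0.35), which encodes a cholesterol transfer protein. Across all libraries the levels covered 25.5 to 108 CPM for Scap, 37.2 to 110.2 CPM for Insig2 and 0.819 to 9.82 CPM for Stard4.

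In the fatty acid branch, Acly was lower in Grn KO libraries and the other 7 genes did not pass. Acly encodes the enzyme that makes cytosolic acetyl-CoA from citrate and so feeds both sterol and fatty acid synthesis. Acly was at 307, 466 and 312 CPM in the Tmem106b HET Grn KO libraries, against 468, 565, 458 and 485 CPM in the Tmem106b HET Grn WT libraries. With Tmem106b WT, Acly was at 398, 353, 334 and 356 CPM in Grn KO libraries, against 623, 455 and 400.5 CPM in Grn WT libraries. The groups overlapped in the Tmem106b HET background, where 1 Grn KO library reached 466 CPM, and not in the Tmem106b WT background. The log2 fold change of Acly was −0.48 ± 0.14 on average (adjusted p = 0.025), −0.50 ± 0.20 in Tmem106b HET (adjusted p = 0.10) and −0.46 ± 0.20 in Tmem106b WT (adjusted p = 0.35). Among Entire libraries alone the estimate was −0.41 with an adjusted p of 0.18 by edgeR, and in the full set the call was lost in 8 of the 14 fits that left out 1 library (adjusted p up to 0.11). Acly stood at 440.1, 447 and 394 CPM in Tmem106b HET Grn HET libraries and at 533, 348, 562, 439.7 and 324 CPM in Tmem106b WT Grn HET libraries. Values of Acly in Tmem106b KO Grn WT libraries were 288, 309, 333 and 479 CPM. For Acly the highest of these 12 was Tmem106b WT Grn HET replicate 3, an Entire library.

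Fasn encodes fatty acid synthase. Fasn was at 17.5, 42.6 and 68.1 CPM in the Tmem106b HET Grn KO libraries, against 41.4, 24.2, 74.0 and 39.8 CPM in the Tmem106b HET Grn WT libraries. With Tmem106b WT, Fasn was at 20.9, 74.9, 17.8 and 17.0 CPM in Grn KO libraries, against 41.2, 92.9 and 21.0 CPM in Grn WT libraries. A Hemi library was the highest of each of these 4 groups, and the log2 fold change was −0.29 ± 0.34 on average (adjusted p = 0.61). Fasn stood at 18.2, 14.4 and 31.3 CPM in Tmem106b HET Grn HET libraries and at 51.8, 53.3, 61.9, 31.6 and 53.1 CPM in Tmem106b WT Grn HET libraries. Values of Fasn in Tmem106b KO Grn WT libraries were 13.6, 133, 26.8 and 37.4 CPM. For Fasn the highest of these 12 was Tmem106b KO Grn WT replicate 2, a Hemi library. Scd2, the desaturase gene that is the main form in brain, had a few very high libraries. Scd2 was at 309.6, 302 and 232 CPM in the Tmem106b HET Grn KO libraries, against 986, 148, 2566 and 375 CPM in the Tmem106b HET Grn WT libraries. With Tmem106b WT, Scd2 was at 393, 1187, 260.2 and 289 CPM in Grn KO libraries, against 1158, 845 and 219 CPM in Grn WT libraries. The 5 highest of these 14 libraries, from 845 CPM up, were 2 Entire and 3 Hemi libraries, and they held 7255 to 25624 CPM of oligodendrocyte markers; the part of those transcripts in Scd2 was not tested. The log2 fold change of Scd2 was −0.94 ± 0.54 (adjusted p = 0.25). Scd2 stood at 551, 118 and 409 CPM in Tmem106b HET Grn HET libraries and at 521, 245, 366, 487 and 670.2 CPM in Tmem106b WT Grn HET libraries. Values of Scd2 in Tmem106b KO Grn WT libraries were 221, 363, 115 and 405 CPM. For Scd2 the highest of these 12 was Tmem106b WT Grn HET replicate 5, a Hemi library.

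Scd1 encodes the related desaturase and was far lower, at a median of 1.75 RPKM. Scd1 was at 5.17, 5.43 and 3.07 CPM in the Tmem106b HET Grn KO libraries, against 15.2, 10.7, 63.4 and 10.1 CPM in the Tmem106b HET Grn WT libraries. With Tmem106b WT, Scd1 was at 13.2, 20.3, 7.43 and 7.36 CPM in Grn KO libraries, against 21.7, 22.5 and 5.23 CPM in Grn WT libraries. Its log2 fold change was −1.06 ± 0.86 (adjusted p = 0.43), and 1 Tmem106b HET Grn HET library held no count of it. Scd1 stood at 18.5, 0 and 28.6 CPM in Tmem106b HET Grn HET libraries and at 9.88, 0.427, 10.49, 17.8 and 33.8 CPM in Tmem106b WT Grn HET libraries. Values of Scd1 in Tmem106b KO Grn WT libraries were 5.45, 5.58, 4.87 and 12.2 CPM. For Scd1 the highest of these 12 was Tmem106b WT Grn HET replicate 5, a Hemi library. Scd1 and Scd2 are close paralogs that could share reads. Estimates for the other genes were −0.31 for Fads1 and 0.58 for Fads2, which encode desaturases of polyunsaturated fatty acids, 0.31 for the elongase gene Elovl6 and 0.73 for Acaca, which encodes acetyl-CoA carboxylase, with adjusted p of 0.29, 0.27, 0.62 and 0.33 by edgeR. Levels in the 26 libraries extended over 68.7 to 255 CPM for Fads1, 7.02 to 62.5 CPM for Fads2, 2.53 to 62.4 CPM for Elovl6 and 0.367 to 6.82 CPM for Acaca.

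**Figure D3:**
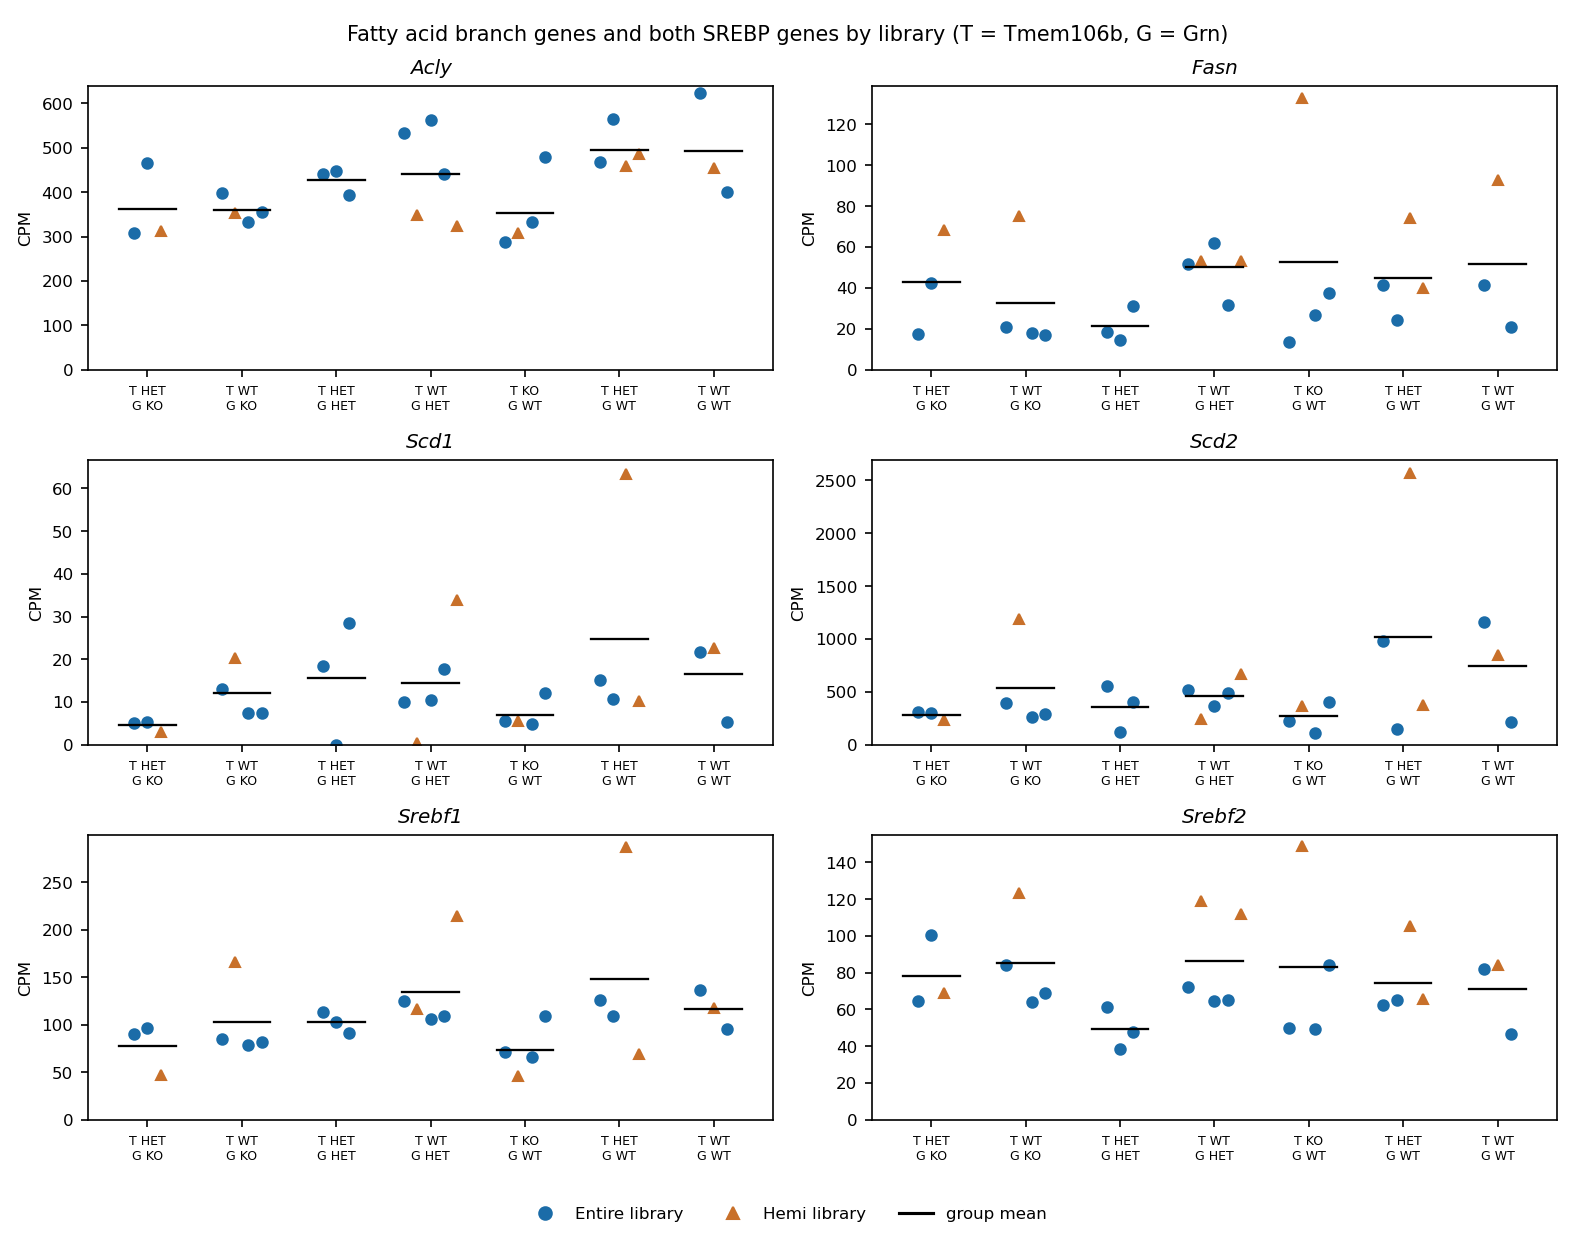
CPM of Acly, Fasn, Scd1, Scd2 and both SREBP genes in each of the 26 libraries, by group (T, Tmem106b; G, Grn), with circles for Entire libraries, triangles for Hemi libraries and bars for group means. Scd2 reaches 2566 CPM and Scd1 63.4 CPM in the same Hemi library of the Tmem106b HET Grn WT group.

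Because Hemi libraries carried the widest values, the Entire libraries were also set side by side, 5 Grn KO against 4 Grn WT, with the Tmem106b WT and HET backgrounds together. These ranges are not adjusted for sex, which was unbalanced. The Entire Grn KO libraries were female except Tmem106b WT Grn KO replicate 1. Of the Entire Grn WT libraries, those with Tmem106b WT were male and those with Tmem106b HET female. Here 12 of the 32 genes were higher in every Grn KO library than in any Grn WT library, where 13.8% of all tested genes were, and 0 were lower in every one, where 8.79% were. They were 10 of the 18 sterol enzymes (Acat2, Mvk, Pmvk, Fdft1, Sqle, Cyp51, Tm7sf2, Msmo1, Hsd17b7 and Sc5d) with Insig1 and Stard4, and 0 of the 8 fatty acid genes. Msmo1 was at 89.7 to 132 CPM (median 102) in the 5 Entire Grn KO libraries, against 29.6 to 65.1 CPM (median 58.2) in the 4 Entire Grn WT libraries. Cyp51 was at 53.4 to 63.6 CPM (median 56.8) in the 5 Entire Grn KO libraries, against 29.3 to 37.0 CPM (median 32.2) in the 4 Entire Grn WT libraries. Sqle was at 24.2 to 57.3 CPM (median 37.7) in the 5 Entire Grn KO libraries, against 6.75 to 17.5 CPM (median 15.2) in the 4 Entire Grn WT libraries. For Msmo1, Cyp51 and Sqle the lowest Grn KO value thus lay above the highest Grn WT value. Acly, by contrast, was at 307 to 466 CPM (median 356) in the 5 Entire Grn KO libraries, against 400.5 to 623 CPM (median 517) in the 4 Entire Grn WT libraries, and Scd2 at 260.2 to 393 CPM (median 302) in the 5 Entire Grn KO libraries, against 148 to 1158 CPM (median 602) in the 4 Entire Grn WT libraries. Over all 7 against 7 libraries, Hemi included, 0 of the 32 genes were separated in either direction, where 2.18% of all genes were higher and 2.58% lower. Fitted on Entire libraries alone, 7 genes of the set were higher and 0 lower on average, where 14.3% of 21373 genes passed in either direction. Among these 7 were Msmo1 (1.06, adjusted p = 0.0021 by edgeR), Sc5d (0.92, adjusted p = 0.0072 by edgeR) and Insig1 (0.99, adjusted p = 0.0077 by edgeR).

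The Entire Grn KO and Grn WT libraries also differed in the transcripts of other cells. Neuron markers summed to 551 to 2419 CPM in the 5 Entire Grn KO libraries, against 65.2 to 135 CPM in the 4 Entire Grn WT libraries, with none of the 10 markers at 0 in any of them, and oligodendrocyte markers to 1495 to 2460.2 CPM, against 546 to 7549 CPM. Microglia markers summed to 20568 to 30322 CPM, against 43114 to 49921 CPM. With the neuron and oligodendrocyte sums as covariates in the full fit, the average log2 fold changes were 0.80 for Msmo1, 0.71 for Sc5d, 0.63 for Insig1, 0.45 for Fdft1, 0.37 for Pmvk, 0.28 for Cyp51 and 0.25 for Acat2, and the adjusted p of these genes lay between 0.32 and 0.83 (edgeR). All 7 estimates were positive and smaller than without the sums, and none of the 7 passed. The median of the 18 sterol enzymes was 0.28, beside 0.73 without the sums. Of all genes, 148 passed in place of 3863. The neuron sums separated the Entire libraries by the same line as the Grn genotype, so among these the contribution of microglia and of other cells cannot be told apart. The Entire library Tmem106b KO Grn WT replicate 3, with Grn intact, held 1258 CPM of neuron markers, more than 4 of the 5 Entire Grn KO libraries. It also held 36390 CPM of microglia markers, more than all 5, and 810 CPM of oligodendrocyte markers, less than all 5. Its values for Msmo1 (67.4 CPM), Insig1 (22.3 CPM), Cyp51 (40.0 CPM), Sc5d (40.6 CPM) and Sqle (18.3 CPM) each lay below all 5 Entire Grn KO libraries. Its Fdft1 (12 CPM) lay inside their range of 8.12 to 16.2 CPM, and its Hmgcs1 (48.5 CPM) inside 47.8 to 81.7 CPM. This is 1 library, and the part of neuron transcripts in these values was not tested.

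**Figure D4:**
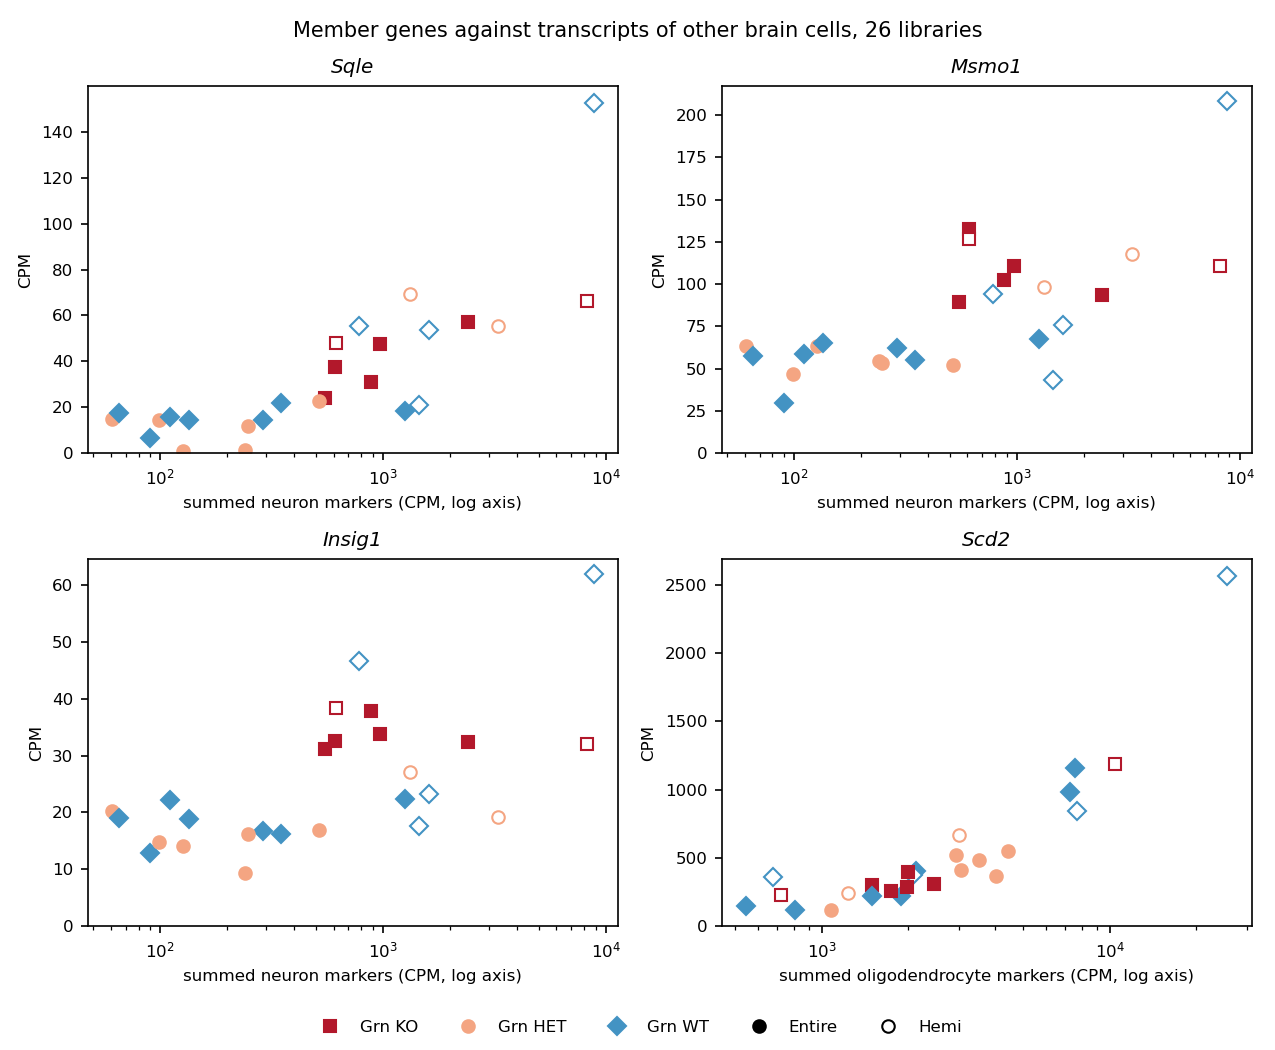
CPM of Sqle, Msmo1 and Insig1 against the summed CPM of 10 neuron markers, and of Scd2 against the summed CPM of 8 oligodendrocyte markers, in 26 libraries (log x axes); colours and shapes mark the Grn genotype and filled symbols Entire libraries. Tmem106b KO Grn WT replicate 2 lies at the upper right of the Sqle, Msmo1 and Insig1 panels with 8824 CPM of neuron markers, and Tmem106b HET Grn WT replicate 3 at the upper right of the Scd2 panel with 25624 CPM of oligodendrocyte markers.

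Loss of Tmem106b with Grn intact called none of the 32 genes by edgeR, DESeq2 or limma-voom. The comparison set 4 Tmem106b KO Grn WT against 3 Tmem106b WT Grn WT libraries. Of all genes, 0.00468%, a single gene, passed by edgeR, 2.56% by DESeq2 and 0% by limma-voom. At an unadjusted p under 0.05 by edgeR, 1322 of all 21371 genes were higher and 1027 lower. Of the 32 genes, 3 were higher and 1 lower. The 3 were Fdft1 (1.08 ± 0.43), Nsdhl (0.56 ± 0.25) and Sc5d (0.62 ± 0.29), and the lower one was Acly (−0.52 ± 0.20), with an adjusted p of at least 0.43. The median log2 fold change was 0.48 over the 18 sterol enzymes and −0.27 over the 8 fatty acid genes. Tmem106b KO Grn WT replicate 2 held 208 CPM of Msmo1 and 62.0 CPM of Insig1; the other 3 libraries, all Entire, held 54.9 to 67.4 CPM of Msmo1 and 16.2 to 22.3 CPM of Insig1, beside 58.8 and 65.1 CPM of Msmo1 and 22.2 and 18.8 CPM of Insig1 in the Entire Tmem106b WT Grn WT libraries.

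Set against the Entire Tmem106b KO Grn WT libraries (n = 3), the 5 Entire Grn KO libraries had 13 of the 32 genes higher without overlap, where 8.31% of all genes were, and 0 lower, where 6.15% were. They were 9 sterol enzymes (Acat2, Pmvk, Mvd, Idi1, Sqle, Cyp51, Msmo1, Hsd17b7 and Sc5d), Insig1, Insig2, Stard4 and Fads2. This count uses the same Grn KO libraries as the one above, so the counts are not independent. It is not adjusted for sex either, and of the Entire Tmem106b KO libraries only replicate 1 was female.

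Heterozygous Grn and heterozygous Tmem106b showed no call among the 32 genes. Grn HET against Grn WT called 0 genes of the set by edgeR, DESeq2 or limma-voom in Tmem106b HET and in Tmem106b WT, with 0 at an unadjusted p under 0.05 in each, and 0% of all genes passed by edgeR. The estimates ran from −1.32 (Sqle) to 0.51 (Stard4) in Tmem106b HET and from −0.67 (Idi1) to 0.72 (Fads2) in Tmem106b WT. Tmem106b HET against Tmem106b WT likewise called 0 genes of the set by the 3 tools in Grn KO, Grn HET and Grn WT. By edgeR 0% of all genes passed in each. In that order, 0, 1 (Sqle, lower) and 1 (Lss, higher) of the 32 genes had an unadjusted p under 0.05 by edgeR. Of all 21371 genes, 1072 were lower at that threshold in Grn HET and 417 higher in Grn WT. Sqle had −1.98 ± 0.79 in Grn HET (adjusted p = 0.67 by edgeR), where a pair of Tmem106b HET libraries held 1.41 and 0.856 CPM, against 12 CPM or more in the Tmem106b WT libraries. The interaction of Grn HET with Tmem106b HET called 0 genes of the set by the same tools, with 0 at an unadjusted p under 0.05.

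Genes around the pathway were counted in 3 lists, to be read against the 18.1% of all tested genes that passed on average (10.7% higher, 7.38% lower). Of 7 genes that process SREBP or degrade pathway proteins, 3 were lower and 0 higher in Grn KO on average, among them Rnf139 (−0.60 ± 0.19, adjusted p = 0.037), which encodes a ubiquitin ligase of the endoplasmic reticulum, and Erlin1 (−0.82 ± 0.27, adjusted p = 0.041), by edgeR. In Tmem106b HET, where 14.5% of all genes passed, 3 of the 7 were lower, with log2 fold changes of −0.85 for Rnf139 and −1.32 for Erlin1. Of 16 genes of further lipid synthesis, 3 were higher and 1 lower on average: Tecr (0.78 ± 0.19, adjusted p = 0.0080) and Hsd17b12 (0.58 ± 0.15, adjusted p = 0.011), enzymes of the elongation cycle for very long fatty acids, and Slc25a1 (0.35 ± 0.12, adjusted p = 0.049), the mitochondrial citrate carrier, were higher, and Mid1ip1 (−0.71 ± 0.22, adjusted p = 0.033) was lower, by edgeR. Of 7 genes of the liver X receptor arm, which sheds excess sterol, 3 were lower on average, namely the sterol exporter gene Abca1 (−0.88 ± 0.30, adjusted p = 0.049), Mylip (−1.30 ± 0.29, adjusted p = 0.0047) and Lpcat3 (−1.01 ± 0.30, adjusted p = 0.025), and Smpdl3a was higher (1.76 ± 0.31, adjusted p = 0.0011), by edgeR. Smpdl3a, known as a liver X receptor target in human macrophages, also passed in both single backgrounds, at 1.30 ± 0.42 in Tmem106b HET and 2.21 ± 0.45 in Tmem106b WT (edgeR, adjusted p = 0.045 and 0.024), and was the one gene of the 3 lists that passed in Tmem106b WT. In Tmem106b HET, Tecr (1.09) was also higher, and Mid1ip1 (−1.01), Gpam (−1.94), which encodes an enzyme of triglyceride synthesis, and Mylip (−1.66) were lower. The median log2 fold changes on average were −0.32, 0.28 and −0.54 over the 3 lists, beside 0.06 over all genes.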

How the data were processed

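Poly(A) RNA of mouse microglia was measured in 26 libraries, made with the RNeasy Plus Micro kit, SMART-Seq v4 and Nextera XT, per the labels' protocols. The authors deposited, per the file headers, raw exonic counts and RPKM per Ensembl gene; per the submitters' processing notes, GSNAP and GRCm38 were used. The counter, annotation release and strand setting are not given in the sources used here. The authors' RPKM scales each count by gene width and a library total of which exonic counts make up 79.9% to 86.4%; RPKM served only to compare levels between genes. No molecular identifiers are given, so counts are reads. Symbols, from the GRCm38 annotation, matched 52403 of 52636 identifiers. The labels do not say that libraries are separate animals, so p-values measure the spread between libraries, which may be technical.

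Genes were filtered by edgeR's filterByExpr on the 7 groups, which kept 21371. All 26 libraries entered one edgeR 4.0.16 fit (R 4.3.3) with TMM scaling, sex and dissection as covariates and robust quasi-likelihood F-tests, two-sided; p-values were adjusted by Benjamini-Hochberg over the 21371 genes, with a threshold of 0.05. There were 8 pairwise comparisons, 2 interactions and 1 average. CPM of genes use TMM-scaled totals, and marker sums plain totals. DESeq2 1.42.0, limma-voom (limma 3.58.1), other scaling, filters, covariates, library subsets and leaving out each library were alternatives. The calling steps were tested on simulated data. Members and lists were chosen with earlier results of these data known. Values in every library are given for each member that passed and for Srebf2, Srebf1, Insig1, Hmgcs1, Sqle, Scd1, Scd2 and Fasn; neighbouring lists name up to 4 genes each by p, and 1 result that this rule names is not reported here. Promoters come from RefSeq on GRCm38.p6.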

Additional observations from a re-analysis of the deposited data

Results flagged for a closer look

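In 128 groups of 4 or 5 libraries (32 genes in 4 groups), 22 values in 20 genes lay apart from the rest of their group by Dixon's test at the 95% level, which flags about 1 in 20 groups by chance. Of these, 12 were in 1 Hemi library, Tmem106b KO Grn WT replicate 2. It held 8625 CPM of microglia, 8824 CPM of neuron and 1107 CPM of astrocyte markers. It had 208 CPM of Msmo1, 172 CPM of Hmgcs1, 152 CPM of Sqle and 115 CPM of Cyp51. It also had 77.0 CPM of Sc5d, 73.5 CPM of Pmvk, 62.4 CPM of Elovl6, 62.0 CPM of Insig1, 55.4 CPM of Acat2, 48.1 CPM of Fdft1, 29.3 CPM of Mvk and 5.30 CPM of Fdps. All 12 lay above the other 3 libraries of the group.

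The Hemi library Tmem106b HET Grn WT replicate 3, with 25624 CPM of oligodendrocyte markers, was high in Idi1 (0.620 CPM), Srebf2 (105 CPM) and Scd1 (63.4 CPM). Its sums of astrocyte (1325 CPM), oligodendrocyte precursor (1301 CPM) and endothelial markers (544 CPM) were also the highest of the 26 libraries. The Hemi library Tmem106b WT Grn KO replicate 2 held 10449.7 CPM of oligodendrocyte and 1131 CPM of astrocyte markers. It was high in Srebf1 (166 CPM), Fasn (74.9 CPM) and Scd2 (1187 CPM). Tmem106b WT Grn HET replicate 5, a Hemi library with 26365 CPM of choroid plexus and ependymal markers, was high in Srebf1 (214 CPM). Among Entire libraries, Scd1 was high in Tmem106b KO Grn WT replicate 4 (12.2 CPM), Nsdhl low in Tmem106b HET Grn WT replicate 2 (16.9 CPM) and Dhcr7 low in Tmem106b WT Grn KO replicate 3 (26.6 CPM). The part of other cells' transcripts in these values was not tested.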

How the results depend on the processing

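No gene that passed changed direction under the alternatives run, and the sterol medians remained positive; the fatty acid medians of the single backgrounds did change sign. For Grn KO against Grn WT averaged over backgrounds, 8 genes of the set passed, and leaving out 1 library gave 2 to 11. None passed without covariates, with sex only, with marker sums, or in Entire libraries with marker sums (0 each). Of all genes, 5.13%, 6.49%, 0.693% and 0.463% passed in these fits. In Tmem106b HET, 4 passed, with 1 to 3 when 1 library was left out. With no expression filter or only the groups compared, 2 passed (6.82% and 6.33% of all genes). In Entire libraries or without the 2 libraries low in microglia markers, 1 passed (6.89% and 6.98% of all genes). Without covariates, with sex only, with marker sums, or in Entire libraries with marker sums, 0 passed. Of all genes, 1.05%, 1.31%, 0.0421% and 0.112% passed in those fits. In Tmem106b WT, 0 passed, 1 did by DESeq2 (where 5.47% of all genes did), and 0 to 0 when 1 library was left out. The sterol median was 0.73 on average and 0.28 with marker sums; 0.80 in Tmem106b HET and 0.36 with marker sums; and 0.52 in Tmem106b WT, where it was 0.35 without covariates, 0.80 in Entire libraries, 0.32 with marker sums, and 0.50 to 0.74 when 1 library was left out. The cause was not tested. In Grn HET, Tmem106b HET against WT gave 0 to 1 when 1 library was left out (1 without Tmem106b HET Grn HET replicate 1). When 1 library was left out, the fatty acid median ranged over −0.50 to 0.04 in Tmem106b HET (positive without Grn KO replicate 1) and −0.45 to 0.12 in Tmem106b WT (positive without Grn WT replicate 1); with marker sums it was 0.13 in Tmem106b WT.

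Leaving out the 2 low-microglia libraries and the fits of Entire libraries with marker sums were chosen after seeing the data. So were the side-by-side ranges of Entire libraries, set up because Hemi libraries carried the widest values. Under marker sums, 148 of all genes passed on average, against 3863 without. No paired analysis was possible because replicate numbers were given in accession order and pair no libraries. Idi1 and Fdps, at medians of 17.5 and 81.5 counts, carry more counting error than the other genes.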
